A study of Mus musculus with 4 samples.

Results

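The imprinted growth network is a set of genes that are expressed mainly from the maternal or the paternal copy and that act on growth before and around birth. The 10 genes taken here are H19, Igf2, Igf2r, Dlk1, Meg3, Plagl1, Cdkn1c, Peg3, Mest and Grb10. They were chosen by symbol, and all 10 had a row among the 46095 rows of the table. Colon of C57BL/6 mice was taken at postnatal day 21, and total RNA was sequenced in 2 wild type (WT) and 2 Esr2-/- (Esr2-KO) libraries, so named after their labels. Esr2 encodes estrogen receptor β, a nuclear receptor and transcription factor. The labels do not describe how the Esr2 allele was made, the sex of the mice, the part of the colon taken or whether each library is a separate animal. The spread that the p-values measure, between these libraries, may thus be technical.

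In mice, the paternally expressed Igf2, Dlk1, Peg3, Mest and Plagl1 are known mostly for supporting growth of the fetus and placenta. The maternally expressed H19, Igf2r, Cdkn1c and Grb10 are known mostly for restraining it, and Meg3 is a maternally expressed noncoding RNA. Many of these transcripts are abundant in fetal organs and decline together after birth, in a pattern often called the imprinted gene network, in which the transcription factor PLAGL1 has a known part. Counts per gene do not separate the maternal from the paternal copy, so imprinting itself was not measured here.

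The libraries held 33709643 (WT 1), 33329655 (WT 2), 32986548 (Esr2-KO 1) and 30826790 (Esr2-KO 2) counts. Esr2-KO 2 stands apart, because a list of 38 genes of the exocrine pancreas took 21.2% of its counts, against 0.258% to 0.407% in the other libraries. For Esr2 itself the WT libraries had 21 and 13 counts and the Esr2-KO libraries 6 and 16 (log2 fold change -0.32 ± 0.77, SE, n = 2 per group, edgeR adjusted p = 0.854). Since the sources used here do not give the deleted part of the gene, these counts do not check the labels. Levels are given as CPM, the count scaled by the TMM-corrected library total. Fold changes are Esr2-KO against WT on the log2 scale with their standard errors, and adjusted p values are Benjamini-Hochberg values of edgeR's quasi-likelihood test over all 17169 tested genes.

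By their mean over the 4 libraries, Igf2r and Grb10 lay above the median of 16.1 CPM over all tested genes and the other 8 members below it, and no member passed the threshold between the genotypes. Of the 10 genes, 9 passed the filter on low counts. With edgeR's adjusted p under 0.05, 0 of these 9 were called, against 2.69% of all tested genes. At an unadjusted p under 0.05 there were 3 of 9 (Plagl1, Cdkn1c and Igf2r), against 20.6% of all genes. Of the 9 fitted log2 fold changes 8 were negative, against 50.3% of all genes, with a median of -0.49 beside -0.0031 over all genes. The exception was Grb10. In 6 of the 9 both Esr2-KO libraries lay below both WT libraries, which held for 27.7% of all genes, and in 1 they lay above, against 27.0%. DESeq2 called 1 member, Plagl1, beside 10.2% of all genes to which it gave an adjusted p, and limma-voom called 0, beside 3.53%. With edgeR, Plagl1 was also the 1 member called without Esr2-KO 2, beside 2.77% of all genes, and 0 were called without WT 1 (0.921% of all genes), without WT 2 (1.85%) or without Esr2-KO 1 (10.03%). In whole tissue, fewer cells of a type and less RNA per cell cannot be told apart.

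**Figure D1:**
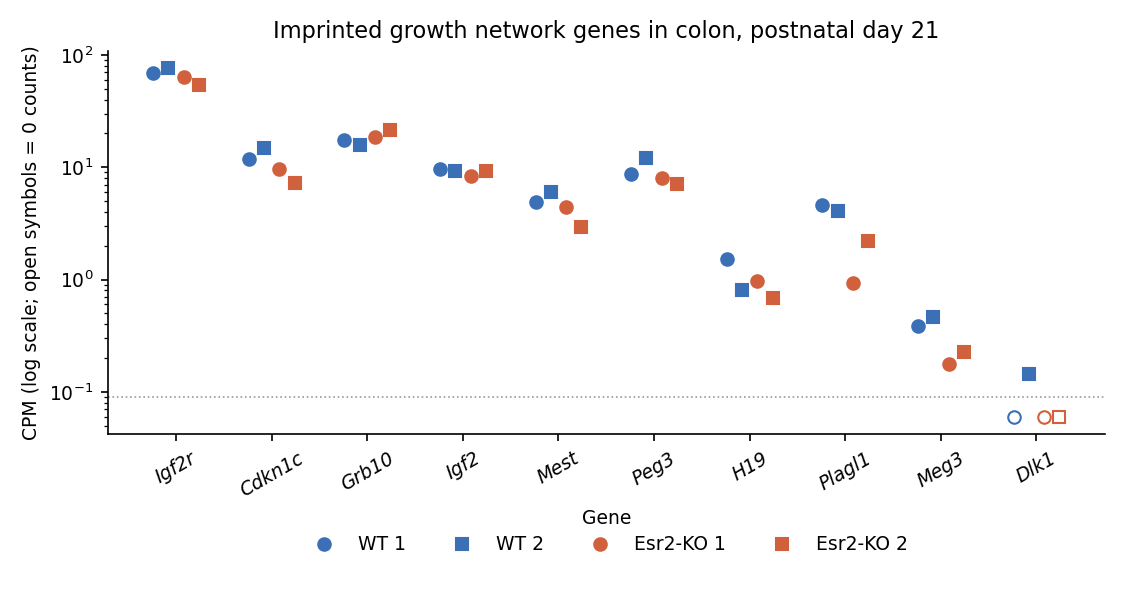
CPM (log scale) of the 10 genes in each of the 4 libraries, ordered by level per kilobase of exon; circles are replicate 1, squares replicate 2, blue WT and orange Esr2-KO, and open symbols below the dotted line are libraries with 0 counts. Plagl1 shows the widest gap between the genotypes, and Igf2 lies between 8.42 and 9.64 CPM in all 4 libraries.

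Igf2 encodes insulin-like growth factor 2, the main growth factor of the fetus, and lies on chromosome 7 from 142650766 to 142666816 on the minus strand (GRCm38). It measured 9.64 and 9.28 CPM in the WT libraries, against 8.42 and 9.29 CPM for Esr2-KO. The groups overlapped, and the libraries differed little in any direction. The log2 fold change was -0.10 ± 0.19 with a 95% interval from -0.56 to 0.37 and an adjusted p of 0.822, so that these libraries leave room for changes within that interval. The annotation lists a further protein-coding gene, Gm49394, that shares 3596 exon bases with Igf2 on the same strand, and reads from the shared bases cannot be told apart.

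Igf2r encodes the receptor that takes IGF2 to the lysosome for breakdown and that also sorts lysosomal enzymes (chromosome 17, 12682406 to 12769664, minus strand). It had the highest level of the members, also per kilobase of exon, with 69.4 and 76.3 CPM for WT and 63.4 and 54.0 for Esr2-KO. Both Esr2-KO libraries were below both WT libraries, and Esr2-KO 2 was the lowest. A log2 fold change of -0.31 ± 0.13 resulted, with an adjusted p of 0.232. Airn, the noncoding RNA known in mouse to silence the paternal Igf2r, overlaps the gene on the opposite strand without shared exon bases. It had 2.89 and 2.16 CPM for WT and 1.90 and 1.97 for Esr2-KO.

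Grb10 encodes an adaptor protein that binds the insulin and IGF1 receptors and dampens their signal (chromosome 11, 11930508 to 12038683, minus strand). It measured 17.6 and 15.6 CPM in the WT libraries, against 18.4 and 21.5 CPM for Esr2-KO. It was the member whose Esr2-KO libraries were both above WT, by a small margin between WT 1 and Esr2-KO 1. Its log2 fold change of 0.26 ± 0.16 had an adjusted p of 0.417.

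Cdkn1c encodes p57, an inhibitor of cyclin-dependent kinases that holds cells out of division (chromosome 7, 143458339 to 143461050, minus strand). It measured 11.9 and 14.8 CPM in the WT libraries, against 9.59 and 7.25 CPM for Esr2-KO. Both Esr2-KO libraries were below both WT libraries, with Esr2-KO 2 again the lowest. This gave a log2 fold change of -0.66 ± 0.23 (adjusted p = 0.172). The antisense gene Gm44732 shares 625 exon bases with it, and the sources used here do not say whether the counting used strand.

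Plagl1, also called Zac1, encodes a zinc finger transcription factor that in mouse is known to act on Igf2, H19, Cdkn1c and Dlk1. It lies on chromosome 10 from 13060504 to 13131694 on the plus strand. The WT libraries had 166 and 142 counts and the Esr2-KO libraries 32 and 58, which is 4.57 and 4.08 CPM against 0.936 and 2.20 CPM. The WT libraries were close to each other, and both Esr2-KO libraries were lower, Esr2-KO 1 by more. The log2 fold change was -1.48 ± 0.45, the largest among the 9, with a 95% interval from -2.54 to -0.41 and an adjusted p of 0.134. It passed the threshold with DESeq2 (adjusted p = 0.0393), with no low-count filter (0.0226) and with library totals in place of TMM (0.0473). DESeq2 called 10.2% of all genes, and with no low-count filter 1916 of 25515 were called. Library totals shift the median of all genes to -0.17 and gave 208 higher and 487 lower calls. Without Esr2-KO 2 the log2 fold change of Plagl1 was -2.20. With only the pancreatic enzyme genes left out it was -1.46 (edgeR adjusted p = 0.132). Over all alternatives the adjusted p ran from 0.0226 to 0.445, the latter without WT 1, and the direction was the same, with the smallest difference without Esr2-KO 1 (-0.97, adjusted p = 0.157).

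Peg3 encodes a zinc finger protein known in mouse for roles in growth, fat storage and maternal care (chromosome 7, 6703892 to 6730431, minus strand). It measured 8.78 and 12.1 CPM in the WT libraries, against 7.98 and 7.06 CPM for Esr2-KO. WT 2 was highest, and WT 1 lay only slightly above Esr2-KO 1. Fitted over the 4 libraries, the difference was -0.47 ± 0.24 on the log2 scale with an adjusted p of 0.314, and it was -0.21 without WT 2. Usp29, its neighbour on the paternal chromosome, had 7 and 6 counts for WT against 5 and 2 for Esr2-KO, too few for the test.

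Mest encodes a membrane protein of the α/β-hydrolase fold that is tied to growth and to fat cell size (chromosome 6, 30723547 to 30748465, plus strand). It measured 4.93 and 6.04 CPM in the WT libraries, against 4.47 and 2.92 CPM for Esr2-KO. Esr2-KO 2 was low, while Esr2-KO 1 lay close to WT 1. The log2 fold change was -0.56 ± 0.31 with an adjusted p of 0.353, and it was -0.29 without Esr2-KO 2. Copg2, a coat protein gene that overlaps Mest on the opposite strand by 912 exon bases, had 55.9 and 51.1 CPM for WT against 55.9 and 53.9 for Esr2-KO.

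H19 is a noncoding RNA next to Igf2 that shares enhancers with it (chromosome 7, 142575529 to 142578143, minus strand). Counts were 55 and 28 for WT against 33 and 18 for Esr2-KO, which is 1.51 and 0.805 CPM against 0.965 and 0.683 CPM. The WT libraries differed from each other 1.88-fold, and the groups overlapped. The log2 fold change was -0.49 ± 0.53 with an adjusted p of 0.652, and it turned to 0.039 without WT 1. Per kilobase of exon, Igf2 exceeded H19 in each library, by 2.74-fold (WT 1), 4.96-fold (WT 2), 3.75-fold (Esr2-KO 1) and 5.85-fold (Esr2-KO 2), and these ratios overlapped between the genotypes.

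Meg3 and Dlk1 belong to the Dlk1-Dio3 domain of chromosome 12. Meg3, a maternally expressed noncoding RNA (109541001 to 109571726, plus strand), had 14 and 16 counts for WT against 6 and 6 for Esr2-KO. These are 0.385 and 0.460 CPM against 0.175 and 0.228 CPM, lower in both Esr2-KO libraries. The exact Poisson interval of WT 1 (0.211 to 0.647 CPM, counting error only) reached into that of Esr2-KO 2 (0.0835 to 0.495). Its log2 fold change was -1.07 ± 0.69 with an adjusted p of 0.430. Dlk1 encodes a membrane protein with EGF-like repeats that is known to hold back fat cell formation (109452823 to 109463336, plus strand). It had 5 counts in WT 2 and 0 in WT 1, Esr2-KO 1 and Esr2-KO 2, where 3 counts, the limit that a count of 0 allows, correspond to 0.0826, 0.0877 and 0.114 CPM. It did not pass the filter on low counts, so that no difference could be detected at this depth.

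H19, Igf2 and Mest carry microRNA genes within their own transcripts on the same strand, and their mature sequences are shown because these short RNAs are known products of the host loci. MicroRNAs repress messenger RNAs that pair with their seed, bases 2 to 8, given in capitals. Sequences are from RefSeq (GRCm38.p6), 5′ to 3′. The miR-675 arms lie in a H19 exon (chr7:142577112-142577133 and chr7:142577078-142577099, minus strand).
mmu-miR-675-5p: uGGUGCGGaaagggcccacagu
mmu-miR-675-3p: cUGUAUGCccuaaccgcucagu
The miR-483 arms lie in an Igf2 intron (chr7:142654968-142654989 and chr7:142654932-142654952, minus strand).
mmu-miR-483-5p: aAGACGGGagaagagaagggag
mmu-miR-483-3p: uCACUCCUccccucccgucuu
The miR-335 arms lie in a Mest intron (chr6:30741314-30741336 and chr6:30741354-30741375, plus strand).
mmu-miR-335-5p: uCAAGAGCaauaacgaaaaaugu
mmu-miR-335-3p: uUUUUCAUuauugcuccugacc
The 6 seeds are all different. Meg3 also holds microRNA genes in its exons on the same strand, Mir770 and Mir1906-1, whose sequences are left out because Meg3 had only 42 counts over the 4 libraries. The rows Mir675, Mir483 and Mir335 had 0 counts over the 4 libraries, and mature microRNAs were not measured. The host transcripts are therefore the values available, and none of H19, Igf2 and Mest passed the test.

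**Figure D2:**
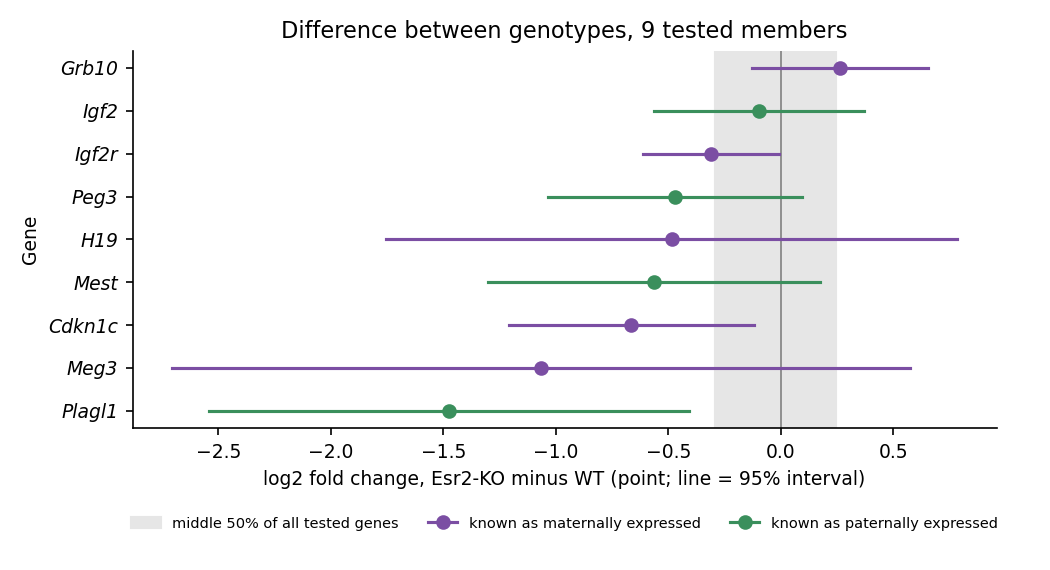
Log2 fold change of the 9 tested members (points) with 95% intervals (lines); purple and green mark genes known as maternally and paternally expressed, and the grey band holds the middle 50% of all tested genes (-0.29 to 0.24). The points of 7 members lie to the left of the band, and the intervals of Plagl1, Cdkn1c and Igf2r do not reach 0 before adjustment for the number of genes.

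Grouped by the parental copy they are known to be expressed from, the members divided as follows. Of 5 maternally expressed members 4 had negative log2 fold changes, with a median of -0.49, and of 4 tested paternally expressed members all 4 were negative, with a median of -0.52. Over all tested genes 50.3% were negative, and a difference between the classes was not tested. Leaving out Esr2-KO 2, 8 of 9 were again negative with a median of -0.29. Without WT 1, 7 of 9 were negative with a median of -0.68. Without WT 2 and without Esr2-KO 1, 8 of 9 were negative, with medians of -0.40 and -0.76. Over all genes the medians of the same fits lay between -0.016 and 0.022. These fits share most of their libraries. Without Esr2-KO 2 the log2 fold changes were -0.16 for Igf2, -0.19 for Igf2r, 0.16 for Grb10, -0.47 for Cdkn1c and -0.38 for Peg3. They were -0.26 for H19 and -1.25 for Meg3.

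Levels between genes were compared per kilobase of annotated exon (GENCODE M21, which need not be the annotation the counts were made with). The length joins the exons of all annotated transcripts of a gene, 18089 bases for Meg3 and 2460 for H19. Where the transcripts present are shorter than that, the level per kilobase comes out too low. Igf2r had the highest level at 7.83 ± 0.52 CPM per kb in WT (SD, n = 2) and 6.31 ± 0.71 in Esr2-KO. Cdkn1c followed at 6.55 ± 1.02 and 4.13 ± 0.81 CPM per kb, and then Grb10 at 1.83 ± 0.15 and 2.20 ± 0.24, and Igf2 at 1.65 ± 0.04 and 1.55 ± 0.11. Mest (1.39 ± 0.20 and 0.937 ± 0.278), Peg3 (0.783 ± 0.175 and 0.564 ± 0.049), H19 (0.471 ± 0.204 and 0.335 ± 0.081) and Plagl1 (0.553 ± 0.044 and 0.201 ± 0.114) were lower. Meg3 came next at 0.0234 ± 0.0029 and 0.0111 ± 0.0020 CPM per kb, and Dlk1 was last. By the mean over the 4 libraries, the receptor and the kinase inhibitor lay above the median of 4.08 CPM per kb over 15964 tested genes with a length, and the growth factor below it, while Cdkn1c was at 3.55 CPM per kb in Esr2-KO 2. Over the 4 libraries the ranges of Cdkn1c and Grb10, of Grb10 and Igf2, and of Plagl1 and Meg3 did not overlap. Those of Igf2r and Cdkn1c, Igf2 and Mest, Mest and Peg3, Peg3 and H19, H19 and Plagl1, and Meg3 and Dlk1 overlapped when the genotypes were pooled. Within each genotype, the ranges of Igf2r and Cdkn1c, Igf2 and Mest, Mest and Peg3, and Peg3 and H19 were separate too. H19 and Plagl1 overlapped in both genotypes and so did not differ beyond their spread, and Meg3 and Dlk1 overlapped in WT but not in Esr2-KO, where Dlk1 had 0 counts.

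**Figure D3:**
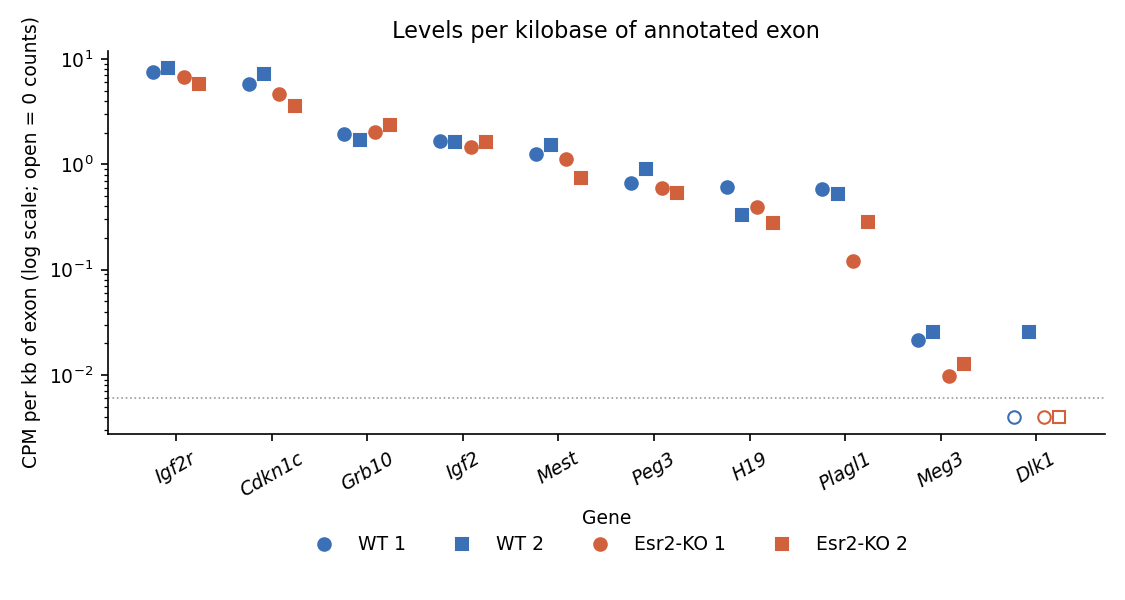
CPM per kilobase of annotated exon (log scale) of the 10 genes in the 4 libraries, with symbols as in the plot of CPM and open symbols below the dotted line for 0 counts. Igf2r and Cdkn1c lie highest, and on this scale, which uses all annotated exons, Meg3 and Dlk1 lie far below the other 8.

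The genes whose pattern over the 4 libraries was nearest to that of Igf2r were Trp53inp1, Stxbp3 and Mtif2. Their root-mean-square distances to it in centred log2 CPM were 0.0077, 0.011 and 0.015 among 12138 genes compared. For Cdkn1c they were Zfp386, Kctd12 and B2m, with distances of 0.024, 0.026 and 0.030. With 4 libraries such likeness is a description only.

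The neighbours of the 10 genes in their chromosomal domains were examined as a list of 47 genes in the table, of which 32 were tested. With edgeR 0 rose and 0 fell, against 1.30% and 1.39% of all genes. At an unadjusted p under 0.05 there were 8 of 32, against 20.6% of all genes. DESeq2 called 6 (10.2% of all genes) and limma-voom 0 (3.53%). The median log2 fold change of the list was -0.02, with 17 of 32 negative, against 50.3% of all genes. The smallest p values belonged to Ddc, the decarboxylase of serotonin and dopamine synthesis that lies beside Grb10 (45.6 and 56.7 CPM for WT, 78.5 and 102 for Esr2-KO, 0.82 ± 0.17, adjusted p = 0.0591). Trpm5, a cation channel gene of taste and tuft cells in the cluster that holds Cdkn1c, followed (13.1 and 10.1 against 5.20 and 2.54 CPM, -1.57 ± 0.36, adjusted p = 0.0758). Both were called without Esr2-KO 1 (0.00472 and 0.00193). Without that library edgeR called 6 of the list and 10.03% of all genes, and without Esr2-KO 2 it called 2 (Ascl2 and Cpa1) and 2.77% of all genes. Ins2, the insulin gene next to Igf2, had 6 and 0 counts for WT against 0 and 512 for Esr2-KO, the 512 in Esr2-KO 2 with its pancreatic transcripts.

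Other genes known to be imprinted in mouse, 27 of 36 tested, had a median of -0.06 with 15 of 27 negative, against 50.3% of all genes. With edgeR 0 were called in either direction, against 2.69% of all genes, and 4 of 27 had an unadjusted p under 0.05, against 20.6%. DESeq2 called 1 (10.2% of all genes) and limma-voom 0 (3.53%). Blcap, whose intron holds the imprinted gene Nnat, had 34.9 and 36.1 CPM for WT against 49.1 and 49.99 for Esr2-KO (0.48 ± 0.11, adjusted p = 0.0839). Peg10, a gene derived from a retrotransposon and needed for the placenta, was at 2.42 and 1.70 against 0.526 and 0.948 CPM (-1.49 ± 0.48, adjusted p = 0.154). Ube3a, a ubiquitin ligase gene named after its values were seen, was the 1 gene of this list called without Esr2-KO 1, when 10.03% of all genes were called.

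Genes of the insulin-like growth factor axis gave 1 edgeR call among 28 tested, against 2.69% of all genes. That share is near the background, and says something of the gene called but not of the list. At an unadjusted p under 0.05 there were 8 of 28, against 20.6% of all genes. Igf2bp2, which encodes an RNA-binding protein that binds Igf2 messenger RNA, fell from 41.4 and 49.1 CPM in WT to 22.8 and 24.1 CPM in Esr2-KO. Its log2 fold change was -0.95 ± 0.14, with an edgeR adjusted p of 0.0296. Both Esr2-KO libraries were below both WT libraries. The call held without Esr2-KO 1 (0.0111) and without Esr2-KO 2 (0.0259), and ended without WT 1 (0.0622) and without WT 2 (0.105). For the list, DESeq2 called 6 genes beside 10.2% of all genes, limma-voom 1 beside 3.53%, and edgeR 6 without Esr2-KO 1 beside 10.03%. The list had a median of 0.13 with 8 of 28 negative, against 50.3% of all genes. Its median turned to -0.04 with library totals, which shift the median of all genes to -0.17.

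**Figure D4:**
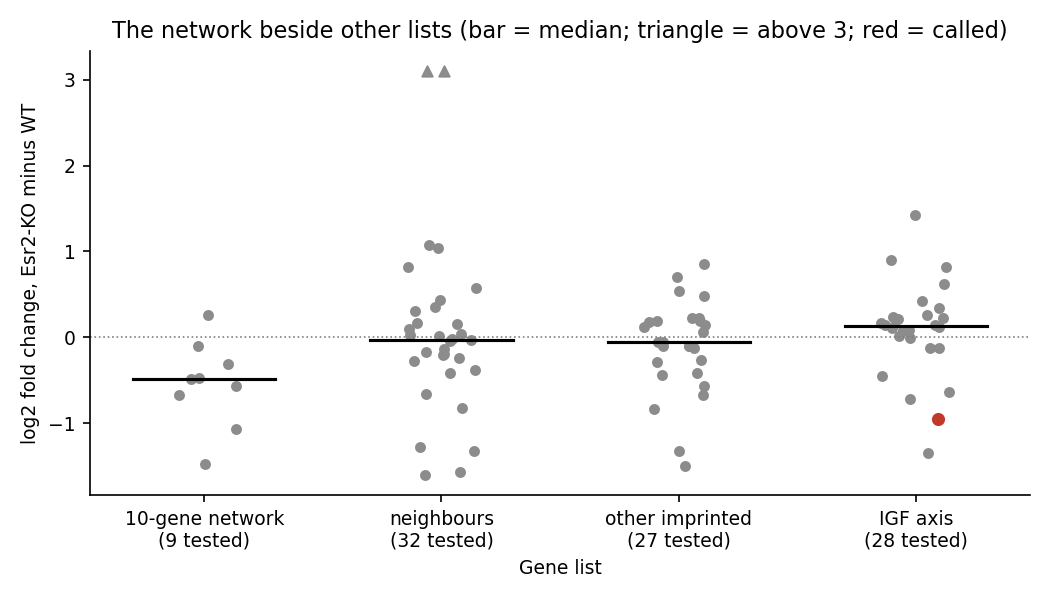
Log2 fold change of each tested gene in the 10-gene network and in the lists of neighbours, other imprinted genes and the IGF axis; bars are medians, the red point is Igf2bp2, which passed an adjusted p of 0.05, and triangles stand for values beyond the axis. The median of the network is -0.49, those of the other lists lie between -0.06 and 0.13, and the difference between lists was not tested.

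Because Esr2 encodes a transcription factor, windows from 250 bases before to 50 after RefSeq gene starts (GRCm38.p6) were searched on both strands. The 8 members with such a window had 15 windows, some of them overlapping. The full estrogen response element, GGTCANNNTGACC, occurred in 0 of the 15, and in 0.0700% of 32851 windows of all genes. Its core GGTCA, which every full element contains, occurred in 8 of the 15, against 40.5% of all windows. The PLAGL1 motif GGGGGGCCCC occurred in 0 of the 15, against 0.0852%. No match says only that these letters are not in the windows. The window of Plagl1, the member with the largest difference, is shown with its 26 CpG dinucleotides, the sites where DNA methylation marks imprinted promoters, in capitals (chr10:13090582-13090881, plus strand). The median over all windows was 7 CpG. Methylation was not measured.
Plagl1: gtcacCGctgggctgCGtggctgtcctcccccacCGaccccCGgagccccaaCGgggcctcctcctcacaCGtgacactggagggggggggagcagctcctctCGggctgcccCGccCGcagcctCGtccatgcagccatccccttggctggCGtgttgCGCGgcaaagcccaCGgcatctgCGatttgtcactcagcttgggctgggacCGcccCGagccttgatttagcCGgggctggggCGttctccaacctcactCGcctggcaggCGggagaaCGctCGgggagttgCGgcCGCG

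Markers of the cell types that a colon sample can hold were summed beside these results. Over all tested genes, 1.30% were called higher with edgeR and 50.3% had a negative log2 fold change. Stromal markers summed to 2258 and 2344 CPM for WT against 2448 and 2500 for Esr2-KO, with 1 of 8 called higher (Pi16) and 4 of 8 negative. Smooth muscle markers summed to 6261 and 4832 against 4939 and 6233 CPM, and epithelial markers to 9633 and 8381 against 9090 and 8392 CPM. Endothelial markers summed to 138 and 152 against 159 and 160 CPM. Lower sums in both Esr2-KO libraries were seen for enteric neurons and glia (73.7 and 77.9 against 62.7 and 60.1 CPM, 8 of 8 negative), and for skeletal muscle (23.0 and 27.3 against 15.1 and 17.9 CPM, Myh4 at 0 in all libraries). Mesothelial markers summed to 31.0 and 21.4 against 12.4 and 22.9 CPM, with 4 of 4 negative, and adipocyte markers to 124 and 299 against 236 and 83.9 CPM, with 4 of 5 negative. Pancreatic acinar markers summed to 146, 175 and 814 CPM in WT 1, WT 2 and Esr2-KO 1 and to 191238 CPM in Esr2-KO 2, with Prss2 and Try4 at 0 in all libraries. Islet markers summed to 0.854, 1.93 and 0.702 CPM in the first 3 libraries and to 29.7 CPM in Esr2-KO 2, with Nkx6-1 at 0 in all. The part of these cell types in the values of the network was not tested. With the pancreatic enzyme genes left out of the table, 0 of the 9 members were called, beside 3.37% of all genes, and the median of the network was -0.47.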

How the data were processed

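Per the labels' protocols, directional libraries were made from Trizol-extracted total RNA after removal of ribosomal RNA. Reads were aligned with HISAT2 to mm10, per the submitters' processing notes. The deposited values are raw counts per gene symbol, as the values show. Which program and annotation gave the counts, and whether strand was used, was not given in the sources used here. The series' design text speaks of triplicates, and 2 libraries per genotype were analysed here. Genes were filtered with filterByExpr (minimum count 10, minimum total 15), scaled by TMM (factors 1.08, 1.04, 1.04 and 0.856) and fitted with edgeR version 4.0.16 under R version 4.3.3 (glmQLFit, glmQLFTest, two-sided, 2 residual degrees of freedom), with an adjusted p under 0.05 as the threshold and no fold minimum. CPM use the TMM-scaled totals. Standard errors and 95% intervals come from the F statistic. Counts of the libraries within a group differed by more than sampling noise (chi-square per degree of freedom of 39.7 in WT and 478 in Esr2-KO). The chi-square was summed over genes with the pancreatic transcripts of Esr2-KO 2 included, and their part in the 478 was not computed. The members and lists were chosen with earlier results of these data known. A rule set which genes are named: all members, the genes past the threshold or otherwise the 2 with the smallest p of each list, the genes nearest in pattern to the 2 members with the highest level per kilobase of exon, and Esr2. Airn, Copg2, Usp29 and Ins2 were named beyond it as genes that overlap or neighbour a member, and Ascl2, Cpa1 and Ube3a to complete small counts. Alternatives were other scalings, filters and tests (DESeq2 1.42.0, limma 3.58.1), each library left out, the replicate number as a block, and the pancreatic enzyme genes left out. Gene positions are from GENCODE M21 (GRCm38).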

Additional observations from a re-analysis of the deposited data

How the results depend on the processing

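For the 9 tested members, 111 of 116 values under the alternatives kept their direction and stayed uncalled. These include Meg3 with DESeq2, where it had no adjusted p. Plagl1 passed with library totals (-1.69), with no low-count filter (-1.46), with DESeq2 (-1.47) and without Esr2-KO 2 (-2.20), and its values with each library left out ran from -2.20 to -0.97. H19 ran from -0.85 to 0.039 with each library left out, and turned to 0.039 without WT 1. Meg3 did not pass the filter of 1 CPM in 2 libraries and had no adjusted p in DESeq2. The count of genes called was 462 (223 higher, 239 lower). It was 695 with library totals (208 higher, 487 lower), 1916 with no low-count filter, 1693 with DESeq2, and from 165 (without WT 1) to 1804 (without Esr2-KO 1) with each library left out. With the replicate number as a block it was 490, no member was called, and Ddc and Trpm5 passed (edgeR adjusted p = 0.0339 and 0.0463). The cause of the differences between these settings was not tested. The deviations of same-numbered libraries from their group means had a correlation of -0.064. With 2 libraries per group the deviations mirror each other, so this value cannot show whether same-numbered libraries share more than a number. With 2 libraries per group, a library left alone in its group was assumed to vary like the other group. Counts of 5 for Dlk1 and 42 for Meg3 over the 4 libraries limit what can be seen of these genes.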

Other observations

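Within the Dlk1-Dio3 domain, the noncoding RNAs Rian and Mirg, chosen after their values were seen, were high in 1 WT library. Rian, which hosts small nucleolar RNAs, had 161 counts in WT 1 and 51, 47 and 28 in WT 2, Esr2-KO 1 and Esr2-KO 2. Mirg, which hosts a cluster of microRNAs, had 102 counts in WT 1 and 22, 18 and 16 in the others. Meg3, which lies upstream of both on the same strand, had 14 and 16 counts in the WT libraries, so that it did not share the difference between them. The log2 fold changes between the genotypes were -1.27 ± 0.57 for Rian and -1.60 ± 0.74 for Mirg, with edgeR adjusted p values of 0.271 and 0.285.

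Phlda2 and Ascl2, also chosen after their values were seen, are known as maternally expressed in mouse, which was not measured in these colon libraries. Both lie in the cluster that holds Cdkn1c and stood higher in Esr2-KO, while Cdkn1c stood lower. Phlda2, a restraint on placental growth, had 0.964 and 1.18 CPM for WT against 2.11 and 2.31 for Esr2-KO (1.04 ± 0.38, edgeR adjusted p = 0.195). Ascl2, a transcription factor of intestinal stem cells, was at 4.16 and 5.29 against 11.6 and 8.23 CPM (1.07 ± 0.27, edgeR adjusted p = 0.0912). Slc22a18, a transporter gene of the same cluster that is also known as maternally expressed, stood lower as Cdkn1c did. It was at 50.9 and 51.9 against 43.4 and 43.8 CPM (-0.24 ± 0.11, edgeR adjusted p = 0.286). None of these passed the threshold in the edgeR fit of the 4 libraries with TMM and the low-count filter. Ascl2 was called with DESeq2, beside 10.2% of all genes, and with no low-count filter, when 1916 of 25515 genes were called. It was also called without Esr2-KO 2, as given for the neighbours.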
